A study of Mus musculus with 21 samples.

Results

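The genes described here copy the genome: they license replication origins, build the replisome, supply deoxynucleotides and drive the step from G1 into S phase. The list held 39 genes, given by name and function; its rule uses no measured value, but it was drawn up with earlier results of these data known. Of these, 34 were among the 11736 genes of the deposited table, and Mcm4, Cdc45, Rfc4, Chaf1a and Chaf1b were not analysed here. All 34 passed the filter on low values, an RPKM (reads per gene relative to its length and to the reads of the library) of 1 or more in 3 or more of 15 libraries.

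Mouse natural killer (NK) cells, sorted from spleen and kept in culture with human interleukin 15 (IL-15) at 50 ng/ml, were compared between 4 genotypes. Cre only cells carried the recombinase alone (4 libraries, S16 to S19). Ikzf1 KO cells (4 libraries, S12 to S15) were deleted for the gene of Ikaros, Ikzf3 KO cells (4 libraries, S1 to S4) for that of Aiolos, and DKO cells (3 libraries, S5 to S7) for both; these are zinc finger transcription factors of lymphocytes. The knockouts were conditional in NK cells, Cre was common to all 4 groups, and the driver of Cre and the age of the mice are not given in the sources used here. Directly sorted NK cells of 2 genotypes were not analysed here. The labels speak of biological replicates without naming the animals, so p-values measure the spread between these libraries.

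In a cycling cell the origin recognition complex, with the loaders Cdc6 and Cdt1, places the Mcm2-7 helicase on DNA in G1. In S phase the helicase is activated, primase and the polymerases copy both strands, and the sliding clamp Pcna holds the polymerases on DNA. Many of these genes are known targets of E2F factors, which are released from the retinoblastoma family when cyclin-dependent kinases act in late G1, and IL-15 is a growth signal that keeps NK cells alive and dividing. In bulk RNA, a larger share of cells in S phase and more RNA of these genes per cell cannot be told apart.

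The E2F motif is shown first, because many genes of this kind are known to share it. Promoter sequences came from RefSeq (build GRCm38.p6, the assembly of mm10), with entries for 29 of the 34 genes and 34 start sites. The 250 bases before each start were searched on both strands for TTTGGCGC, TTTCCCGC and TTTCGCGC, whose matches can overlap each other on opposite strands. A match was found at 8 of the 34 starts (23.5%), 1 start in each of 8 genes, against 1.5% of 32851 starts of all genes and 2.9% of 11093 starts of the genes in the table. The windows of Mcm5, Mcm6 and Pola1 are given whole, since they hold no annotated exon, and 30 bases around the match are given for the other 5 genes. Capitals mark the motif.

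Mcm5, chr8:75109259-75109508, plus strand: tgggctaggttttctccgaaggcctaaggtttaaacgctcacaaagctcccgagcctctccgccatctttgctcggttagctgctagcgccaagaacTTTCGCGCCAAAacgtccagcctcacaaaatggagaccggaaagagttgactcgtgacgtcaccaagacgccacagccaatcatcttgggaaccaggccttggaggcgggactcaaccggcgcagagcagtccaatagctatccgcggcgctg
Mcm6, chr1:128359706-128359955, minus strand: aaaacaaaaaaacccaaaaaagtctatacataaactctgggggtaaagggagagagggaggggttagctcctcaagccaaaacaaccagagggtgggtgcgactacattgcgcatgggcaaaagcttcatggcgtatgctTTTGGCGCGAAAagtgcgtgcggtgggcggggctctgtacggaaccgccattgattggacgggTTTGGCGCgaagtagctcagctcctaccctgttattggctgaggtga
Pola1, chrX:93632156-93632405, minus strand: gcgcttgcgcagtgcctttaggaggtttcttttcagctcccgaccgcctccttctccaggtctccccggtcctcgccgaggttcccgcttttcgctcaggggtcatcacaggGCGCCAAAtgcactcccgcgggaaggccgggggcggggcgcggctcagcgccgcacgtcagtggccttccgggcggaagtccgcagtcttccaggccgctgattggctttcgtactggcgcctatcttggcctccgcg
Rfc3, chr5:151651209-151651238, minus strand: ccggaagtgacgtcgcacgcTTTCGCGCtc
Cdc6, chr11:98908002-98908031, plus strand: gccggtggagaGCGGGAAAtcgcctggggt
Mcm7, chr5:138172030-138172059, minus strand: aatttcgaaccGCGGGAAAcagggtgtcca
Orc1, chr4:108579416-108579445, plus strand: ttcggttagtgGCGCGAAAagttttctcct
Uhrf1, chr17:56304117-56304146, plus strand: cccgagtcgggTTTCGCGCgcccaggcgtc

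In Mcm5 a match on each strand overlapped in TTTCGCGCCAAA, and in Mcm6 a like pair stood in TTTGGCGCGAAA, with a further match nearer the start. The first base of the Rfc3 match lay 10 bases before the start, while those of Cdc6 and Pola1 each lay 138 bases before theirs. Among the other motifs, searched on both strands, CCAAT was found at 52.9% of the 34 starts and 33.8% of all starts. TGGGAA, a core of sites that Ikaros family proteins are known to bind, was found at 29.4% against 21.6%. TTTGAA, the element of many mitosis genes, was found at 5.9% against 16%, and TGANTCA, the AP-1 motif, at 0 of the 34 starts against 6.7% of all. At the 11093 starts of the genes in the table, the shares were 35.3% for CCAAT, 20.4% for TGGGAA, 11.1% for TTTGAA and 4.4% for TGANTCA. These are matches of letters only.

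Each library held 8.61 to 21.2 megareads in the 11291 genes whose values converted into whole reads, which leaves out the reads of other genes. Ikzf1 was at 61.9 ± 5.22 RPKM in Cre only (SD, n = 4) and 19.1 ± 0.662 in Ikzf1 KO cells (SD, n = 4). Ikzf3 was at 41.8 ± 3.68 RPKM in Cre only (SD, n = 4) and 17.8 ± 2.37 in Ikzf3 KO cells (SD, n = 4). Against Cre only, both fell in the DKO, by 1.04 and 0.94 on the log2 scale. Ikzf1 was higher in the DKO than in the Ikzf1 KO, by 0.63 ± 0.14 (SE; adjusted p = 0.012, limma). Ikzf3 was not called between the DKO and the Ikzf3 KO (0.27 ± 0.12, adjusted p = 0.13). Of 10 NK cell markers 9 were in the table, and their summed RPKM was 10300 to 14200 in Cre only, 11200 to 12100 in Ikzf1 KO, 3570 to 13200 in Ikzf3 KO and 2420 to 5170 in DKO libraries. Of 14 T cell markers 12 were in the table, with a summed RPKM of 665 to 916, 666 to 762, 616 to 845 and 999 to 1930 in the same order, and Cd8a was under 1 in every library. The part of other cells in the results below was not tested.

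The replication genes separated libraries as well as genotypes. For each library, the median over the 34 genes of log2(RPKM + 0.5) minus the Cre only mean was -0.03, -0.33, -0.18 and 0.51 in Cre only S16 to S19. It was 0.70, 0.63, 0.61 and 0.68 in Ikzf1 KO S12 to S15, and 0.30, 0.89 and 0.64 in DKO S5 to S7. In the Ikzf3 KO it was 0.34 in S1 and 0.30 in S2, but -0.57 in S3 and -0.81 in S4. Thus S19 stood above the other Cre only libraries and S3 and S4 below every other library. S19 was the highest Cre only library for 33 of the 34 genes, S6 the highest and S5 the lowest DKO library for 33 each, and S3 and S4 were together the lowest of the 15 libraries for 20. The whole Ikzf1 KO group lay above the Cre only mean for all 34 genes.

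**Figure D1:**
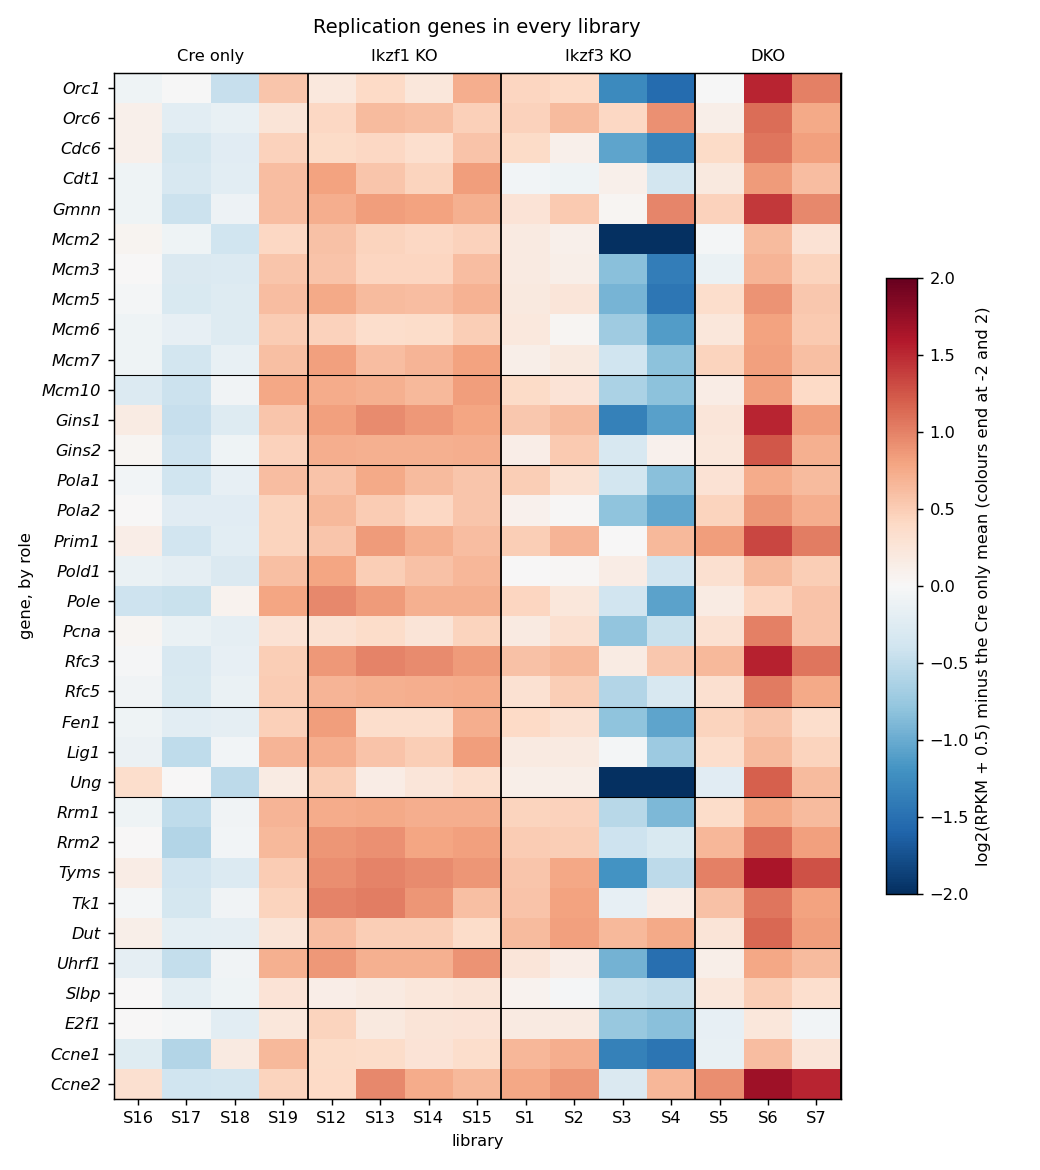
Level of the 34 genes (rows, by role) in the 15 libraries (columns), as log2(RPKM + 0.5) minus the Cre only mean, with colours ending at -2 and 2. Ikzf1 KO columns are red throughout, while S3 and S4 of the Ikzf3 KO are blue for most genes and S19 is red among the Cre only columns.

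Within genotypes, the spread was therefore uneven. The median SD over the 34 genes on the log2 scale was 0.40 in Cre only, 0.10 in Ikzf1 KO, 0.57 in Ikzf3 KO and 0.34 in DKO libraries. For all genes tested it was 0.17, 0.12, 0.36 and 0.21, so the replication genes were the less spread set in Ikzf1 KO cells only. Within the Ikzf3 KO the highest library exceeded the lowest 10.2-fold for Ung (uracil-DNA glycosylase), 8.16-fold for Mcm2 and 6.86-fold for Orc1, but 1.15-fold for Dut (dUTPase).

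The genes mostly moved together from library to library. The median correlation of a gene with the median of the others was r = 0.91 over the 15 libraries, which span 4 genotypes and unequal depths, and 0.92 over 13 without S3 and S4. Differences between genotypes are part of these values. The lowest values were those of Orc6 (0.32), Dut (0.33), Gmnn (0.57), Ccne2 (0.65) and Prim1 (0.66). Without S3 and S4 they were 0.85, 0.80, 0.96, 0.78 and 0.88.

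Mitosis genes, a list of 29 tested genes outside the 34, did not show the low levels of S3 and S4. Their median against the Cre only mean was 0.32 in S3 and 0.22 in S4. The difference between the median of the mitosis genes and that of the replication genes was 0.89 in S3 and 1.03 in S4, and ran from -0.43 to 0.30 in the other 13 libraries. These are per-library descriptions, with no test.

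**Figure D2:**
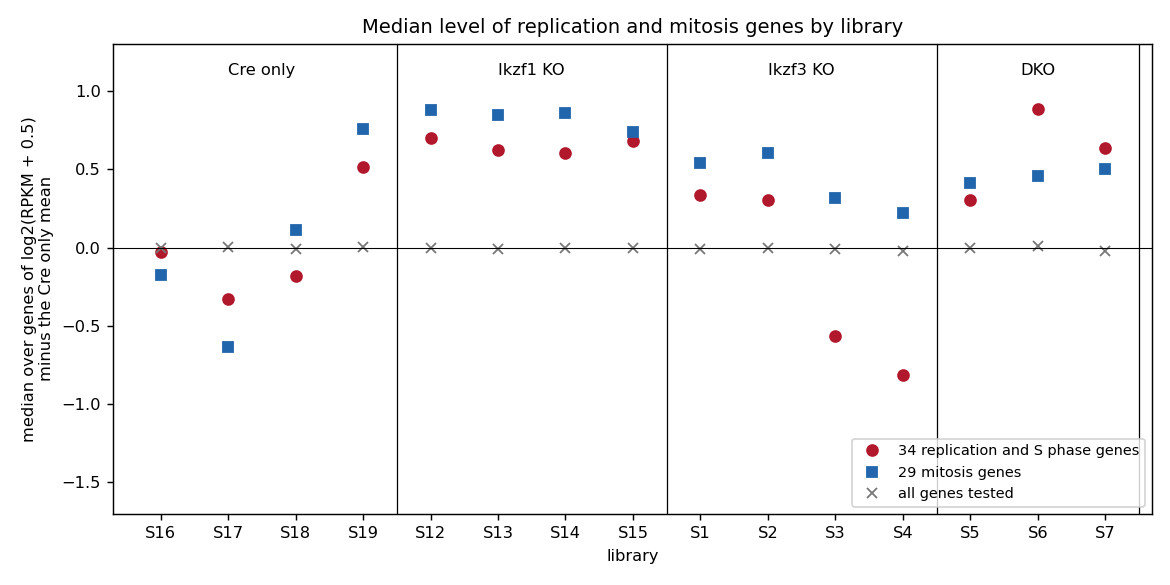
Median level in each library (log2(RPKM + 0.5) minus the Cre only mean) of the 34 replication genes, of 29 mitosis genes and of all genes tested. Replication and mitosis genes lie within 0.43 of each other except in S3 and S4, where the replication genes are lower by 0.89 and 1.03.

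In Ikzf1 KO cells, replication genes tended to higher levels than in Cre only cells, and 3 of 34 passed the test: Rfc3, Tk1 and Prim1. Called genes made up 6.32% of all genes tested (3.54% higher and 2.78% lower), against 8.82% of the 34, and none of the 34 was called lower. All 34 estimates were positive, with a median log2 fold change of 0.66 (range 0.20 to 0.93), against -0.01 and 49.2% positive over all genes. At an unadjusted p below 0.05 there were 21 of the 34, all higher, against 19.7% of all genes tested in either direction. For 13 of the 34 every Ikzf1 KO library lay above every Cre only library, which held for 11.6% of all genes.

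Rfc3, a subunit of the clamp loader that places Pcna on DNA (chromosome 5, 151642756 to 151651242, minus strand, GENCODE M21 on mm10, as for the positions below), was at 7.74, 6.21, 6.99 and 11.3 RPKM in Cre only S16 to S19 and at 14.8, 16.1, 15.6 and 14.6 in Ikzf1 KO S12 to S15. The libraries of the groups did not overlap, although S19 was well above the other controls. Its log2 fold change was 0.91 ± 0.20 (SE; adjusted p = 0.012, limma), and it passed under all 24 other settings (pseudocounts, filters, scalings, model forms and single libraries left out). Tk1, thymidine kinase of the salvage pathway, was at 14.3, 11.4, 14.0 and 20.2 RPKM in Cre only and 29.5, 30.4, 27.4 and 22.4 in Ikzf1 KO cells (0.87 ± 0.21, adjusted p = 0.024). Prim1, the catalytic primase subunit, was at 10.7, 7.33, 8.27 and 13.4 against 14.4, 17.9, 16.2 and 15.1 RPKM (0.69 ± 0.19, adjusted p = 0.048). In neither gene did the groups overlap, and they passed under 18 and 13 of the 24 other settings.

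The number called depended on single libraries, and most of these counts are given without the share of all genes called in the same fit. It was 13 without S19, 6 without S3 or S5, 7 without S4, and 1 without any of S12, S13, S14, S16, S17 or S18. Leaving out S16 and S17 together gave 0, with adjusted p = 0.13 for Rfc3, and the median fold change was then 0.46. With only these 2 genotypes in the fit, 22 were called, but 20.2% of all genes were.

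Ikzf3 KO cells showed no common direction against Cre only. Of the 34 genes 2 rose, Dut and Orc6, or 5.88% against 14.2% of all genes tested (6.3% higher and 7.88% lower), and none fell. The median log2 fold change was -0.19, with 25 negative estimates, ranging from -1.12 (Mcm2) to 0.71 (Dut), but this sign rested on S3 and S4. Without both, the median was 0.33 and 33 of the 34 estimates were positive (Mcm2 0.14, adjusted p = 0.69), with 2 genes called higher and none lower. With single libraries left out the median ran from -0.34 to 0.06, and with weights per library it was 0.37. At an unadjusted p below 0.05, 4 were higher and 1, Mcm2, lower, against 34.1% of all genes tested in either direction. For 2 of the 34, Dut and Orc6, all Ikzf3 KO libraries exceeded all Cre only libraries, as in 7.68% of all genes.

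Dut, which removes dUTP so that uracil is not built into DNA (chromosome 2, 125247190 to 125258608, plus strand), was at 79.3, 64.4, 64.7 and 88.0 RPKM in Cre only and 114, 130, 115 and 124 in Ikzf3 KO S1 to S4. All 4 Ikzf3 KO libraries were above all controls, S3 and S4 included. It rose by 0.71 ± 0.17 (adjusted p = 0.014) and passed under all 24 other settings, but not without S16 and S17 (adjusted p = 0.088). Orc6, the smallest subunit of the origin recognition complex, was at 19.1, 15.4, 16 and 21.5 RPKM in Cre only and 24.7, 27.9, 23.9 and 34.2 in Ikzf3 KO cells (0.61 ± 0.19, adjusted p = 0.046). It passed under 12 of the 24 other settings, and not without S2, S3 or S4 (adjusted p up to 0.13 over the other settings).

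The Ikzf3 KO libraries were unlike each other. Without S1 and S2, 22 of the 34 were called, 20 of them lower and 2 higher, with a median of -0.67 and 28 negative estimates, while 53.4% of all genes were called. Without S3 and S4, 2 were called, Tk1 and Dut, both higher, and 9.7% of all genes were. With single libraries left out the count was 4 without S1, 2 of them lower, and 1 without S3, S4, S7, S12, S13, S14, S15, S16, S17 or S18. Without S16 and S17 it was 0, and without S18 and S19 it was 1. For the single libraries and these Cre only pairs, the share of all genes called is not given here.

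DKO cells had 9 of the 34 genes higher than Cre only cells and none lower: Rrm2, Tyms, Tk1, Dut, Gmnn, Orc6, Prim1, Rfc3 and Ccne2. This was 26.5%, against 18.7% of all genes tested in either direction, 8.06% higher and 10.6% lower. All 34 estimates were positive, with a median of 0.61 (range 0.01 to 1.38). For 8 of the 34 the libraries of the DKO all lay above those of Cre only, as in 16.1% of all genes. Of the 5 nucleotide supply genes among the 34, 4 were called. None of the 9 called genes belonged to the Mcm helicase, whose subunits had estimates of 0.30 (Mcm2) to 0.62 (Mcm7). The T cell marker sums above were higher in the DKO than in Cre only libraries, and the NK marker sums lower. Of 9 tested NK markers 3 were called lower (Prf1, Gzmb and Nkg7) and 6 were not called, with a median log2 fold change of -0.06. Of 9 tested T cell markers 4 were called higher (Cd3d, Cd3e, Trac and Trbc2) and 5 were not called. The largest rise among these was that of Cd3e, a CD3 chain, by 4.55 ± 0.57 (adjusted p = 7.2e-05). The part of other cells in the result was not tested.

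Ccne2, cyclin E2, which activates Cdk2 at the G1/S step (chromosome 4, 11191351 to 11204779, plus strand), was at 7.10, 4.14, 4.25 and 7.84 RPKM in Cre only S16 to S19 and at 11.1, 19.2 and 17 in DKO S5 to S7. Every DKO library was above every control. It rose by 1.38 ± 0.29 (adjusted p = 0.005). Of its 3495 exonic bases, 609 overlap the opposite-strand gene Ints8, and whether the counts used strand is not given in the sources used here. Its relative Ccne1 was at 10.8, 8.40, 14.7 and 20.5 RPKM in Cre only and 11.6, 20.1 and 15.3 in DKO cells, which overlap, with a difference of 0.24 (95% interval -0.80 to 1.27, adjusted p = 0.78). The difference between the responses of Ccne1 and Ccne2 was not tested.

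Tyms, thymidylate synthase, was at 10.3, 7.01, 7.59 and 13.3 RPKM in Cre only and 19.2, 29.7 and 23.1 in DKO cells (1.31 ± 0.37, adjusted p = 0.025). Rfc3 was at 12.6, 23.7 and 17 RPKM in the DKO (1.08 ± 0.21, adjusted p = 0.003), and Prim1 at 17.6, 25.3 and 20.1 (1.06 ± 0.21, adjusted p = 0.003). None of these overlapped the controls, whereas S5 did for Dut, Gmnn and Orc6. Rrm2, the small subunit of ribonucleotide reductase, was at 87.6, 57.9, 83.7 and 137 RPKM in Cre only and 139, 188 and 155 in DKO cells, the lowest DKO library being just above S19 (0.86 ± 0.27, adjusted p = 0.038). Gmnn, geminin, which holds Cdt1 inactive after origins have fired, was at 33.1, 25.8, 32.5 and 53.9 RPKM in Cre only and 48.5, 93.8 and 68.8 in DKO cells, and rose by 0.95 ± 0.26 (adjusted p = 0.022).

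In the single knockouts, Tyms was at 18, 18.8, 18.3 and 17.4 RPKM in the Ikzf1 KO, above every control, but its difference of 0.93 did not pass (95% interval 0.19 to 1.67, adjusted p = 0.14). Rrm2 was at 162, 165, 151 and 155 RPKM there, also above every control (0.85, 95% interval 0.32 to 1.39, adjusted p = 0.058). Both genes were split in the Ikzf3 KO, where S1 to S4 held 13.9, 16.2, 3.78 and 6.29 RPKM of Tyms and 124, 123, 65.4 and 71.0 of Rrm2. Ccne2 was split less, at 9.99, 10.8, 4.52 and 9.20 RPKM, with only S3 low. Ccne1 was at 20.6, 21.6, 4.72 and 4.36 RPKM in the Ikzf3 KO, spanning both ends of all 15 libraries, and at 16.9, 16.7, 15.7 and 16.6 in the Ikzf1 KO.

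Prim1, Rfc3 and Ccne2 passed in the DKO under all 24 other settings and with each of 4 pairs of libraries left out. Of the other called genes, Dut passed under 23 of the 24, Tyms and Tk1 under 20, Gmnn under 19, Orc6 under 17 and Rrm2 under 15. The count of 9 was 16 without S19, 3 without S6, and 4 without S7, S17 or S18. Without S16 and S17 it was 3.

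**Figure D3:**
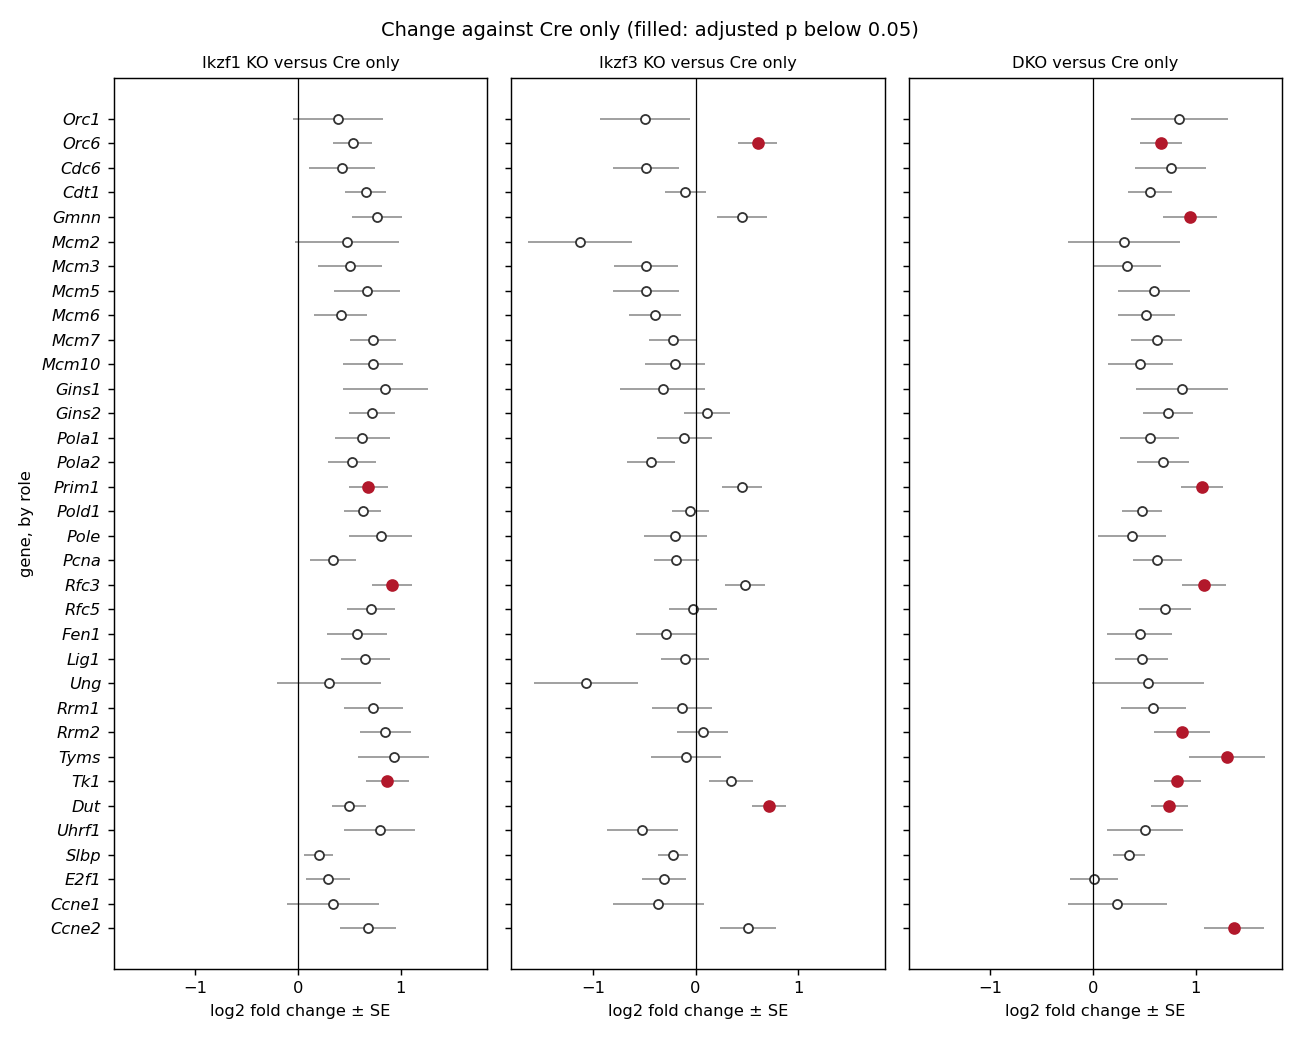
Log2 fold change (x axis, ± SE) of each of the 34 genes (y axis, by role) against Cre only in Ikzf1 KO, Ikzf3 KO and DKO cells, filled where the adjusted p is below 0.05. All estimates are above 0 in the left and right panels, 25 of 34 are below 0 in the middle panel, and 3, 2 and 9 are filled.

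Compared with the Ikzf1 KO, the DKO showed no called difference in these genes. The count was 0 of 34 by limma, against 7.48% of all genes tested (3.76% higher and 3.72% lower), and no count model was fitted to the RPKM. At an unadjusted p below 0.05 there was 1 (Ccne2), against 21.9% of all genes tested. The median was 0.00, with 17 estimates on each side and a range of -0.42 to 0.69. Ccne2 was at 7.55, 11.4, 9.78 and 9.04 RPKM in Ikzf1 KO S12 to S15, which overlap with 11.1 in S5, and the difference was 0.69 (95% interval 0.06 to 1.32, adjusted p = 0.18). The interval for Rrm2 was -0.57 to 0.59, so differences up to about that size were not resolved. With the fit on the 2 genotypes alone 1 gene was called lower, and with weights per library 1 was called higher. The share of all genes called in these fits is not given here.

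The Ikzf3 KO and the other knockouts differed in more genes, with the libraries S3 and S4 weighing on the result. The DKO exceeded the Ikzf3 KO in 9 of 34 (26.5%, against 20.1% of all genes tested, 10.2% higher and 9.85% lower): Mcm5, Mcm6, Mcm7, Pcna, Tyms, Cdc6, Cdt1, Pola2 and Slbp. The Ikzf1 KO exceeded the Ikzf3 KO in 14 of 34 (41.2%, against 17.7% of all genes tested, 9.01% higher and 8.68% lower): Mcm2, Mcm3, Mcm5, Mcm6, Mcm7, Mcm10, Cdt1, Pola2, Pold1, Pole, Rfc5, Lig1, Rrm2 and Uhrf1. None was lower in either. Groups did not overlap for 14 of 34 in the DKO comparison, as in 12.4% of all genes. In that of the Ikzf1 KO all libraries lay above those of the Ikzf3 KO for 23, as in 13.7% of all genes, and below them for 1.

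Among the helicase genes, Mcm2 (chromosome 6, 88883474 to 88898780, minus strand) was at 40.2, 37.9, 8.25 and 4.93 RPKM in Ikzf3 KO S1 to S4, 53.2, 48.3, 47.3 and 48.9 in Ikzf1 KO, 34.6, 55.4 and 43.6 in DKO and 36.9, 33.5, 26.8 and 47.6 in Cre only cells. S1 and S2 lay within the Cre only range, and S3 and S4 far below every other library. The Ikzf1 KO exceeded the Ikzf3 KO by 1.60 ± 0.51 (adjusted p = 0.043), which did not pass in 14 of the 24 other settings.

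Mcm5 (chromosome 8, 75109569 to 75128439, plus strand) was at 94.4, 97.5, 42.8 and 30 RPKM in the Ikzf3 KO, 140, 128, 126 and 133 in the Ikzf1 KO, 105, 154 and 120 in the DKO and 80.1, 66.3, 68.5 and 126 in Cre only cells. The Ikzf3 KO libraries were all below those of the other knockouts. The difference was 1.16 ± 0.32 for the Ikzf1 KO (adjusted p = 0.027) and 1.08 ± 0.35 for the DKO (adjusted p = 0.043). These passed under 17 and 11 of the 24 other settings, and neither passed without S3 and S4. Mcm7, at 51.3, 54.3, 35.8 and 26.7 RPKM in the Ikzf3 KO and 84.0, 73.1, 75.7 and 83.1 in the Ikzf1 KO, differed by 0.95 ± 0.23 (adjusted p = 0.012). It passed in all 24 other settings, but not without S3 and S4 (adjusted p = 0.097).

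**Figure D4:**
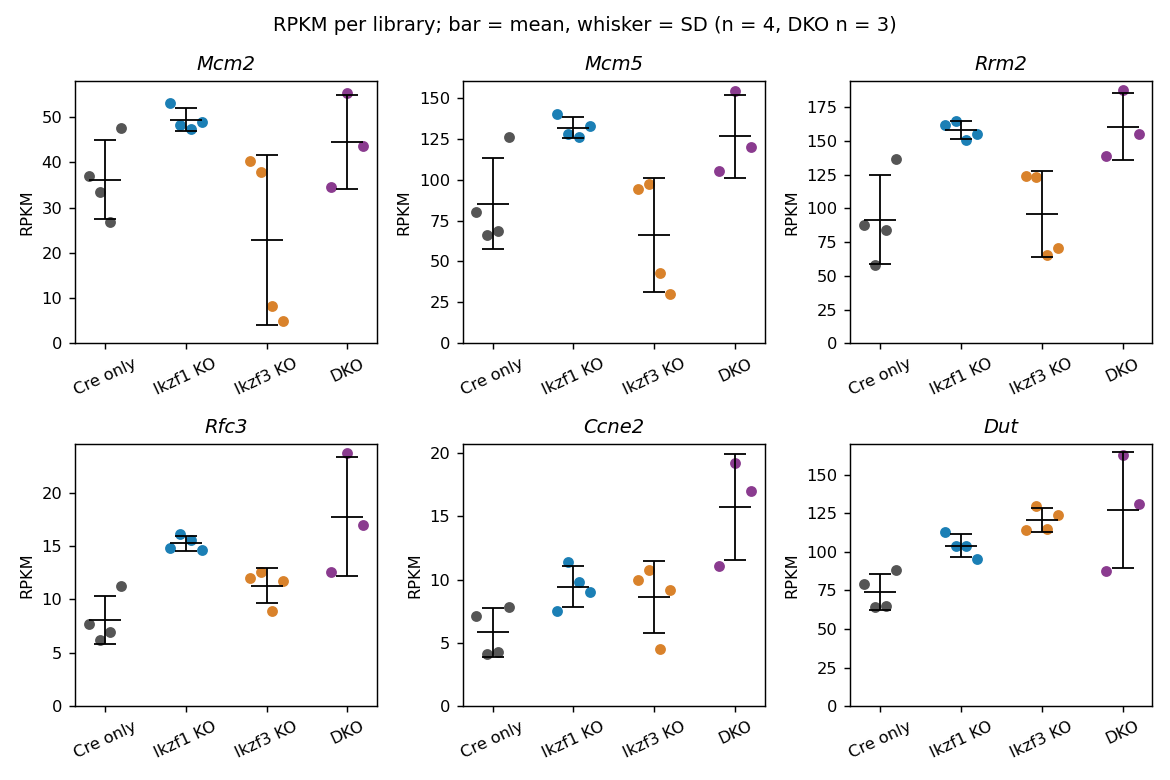
RPKM in each library (points) of Mcm2, Mcm5, Rrm2, Rfc3, Ccne2 and Dut, with the mean (bar) and SD (whisker) of each genotype. Mcm2 and Mcm5 show 2 low Ikzf3 KO libraries, Dut shows all 4 Ikzf3 KO libraries above the controls, and Ccne2 shows the DKO above the controls.

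The helicase loaders behaved unlike each other in the Ikzf3 KO libraries. Cdc6 was at 10.2, 8.36, 3.46 and 2.77 RPKM in S1 to S4, against 10.3, 16.8 and 14.0 in the DKO (1.24 ± 0.35, adjusted p = 0.022). Cdt1, its partner, was at 19.3, 18.9, 21.6 and 15.5 RPKM in S1 to S4, so that S3 was the highest of them, against 35.3, 29.6, 27.6 and 36.4 in the Ikzf1 KO (0.76 ± 0.20, adjusted p = 0.021). Their Cre only values were 8.37, 6, 6.55 and 10.9 RPKM for Cdc6 and 18.9, 16, 17.2 and 31.1 for Cdt1, which overlap with all 3 knockouts. In the Ikzf1 KO Cdc6 was at 10.3, 10.5, 9.93 and 11.8 RPKM, and in the DKO Cdt1 was at 23.0, 36.7 and 31.2 (0.66 ± 0.22 above the Ikzf3 KO, adjusted p = 0.047). The Cdt1 difference passed under 21 of the 24 other settings for the Ikzf1 KO and 11 for the DKO, and neither passed without S3 and S4.

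Pola2, the regulatory subunit of DNA polymerase alpha, was at 19.2, 18.4, 10.2 and 8.55 RPKM in the Ikzf3 KO, 25, 33.8 and 30.2 in the DKO and 28.8, 25.9, 24.3 and 26.8 in the Ikzf1 KO. Both differences passed, 1.12 ± 0.25 for the DKO (adjusted p = 0.007) and 0.97 ± 0.24 for the Ikzf1 KO (adjusted p = 0.013). The groups did not overlap. The DKO difference also passed without S3 and S4, at 0.64 (adjusted p = 0.03), and did not pass in the fit of those 2 genotypes alone (adjusted p = 0.075). Values of Pola2 were the only ones among the 34 genes that did not convert into whole reads.

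Pcna was at 142, 157, 72.2 and 92.5 RPKM in the Ikzf3 KO and 156, 253 and 187 in the DKO, overlapping by S2 and S5 (0.81 ± 0.24, adjusted p = 0.028), with Cre only at 129, 114, 111 and 153 and Ikzf1 KO at 155, 162, 151 and 171. Slbp, which binds the stem loop of histone messages, was at 22, 20.6, 15.2 and 14.7 RPKM in the Ikzf3 KO and 24.4, 29.6 and 26.3 in the DKO, without overlap (0.57 ± 0.15, adjusted p = 0.019). Uhrf1, which brings DNA methylation to new DNA, was at 46.8, 43.2, 20.1 and 13.5 RPKM in the Ikzf3 KO and 72.3, 64.5, 64.4 and 73.8 in the Ikzf1 KO (1.32 ± 0.34, adjusted p = 0.02). Cre only cells held 34.6, 28.2, 37.6 and 65.0 RPKM of it, S19 alone lying within the Ikzf1 KO range and the other 3 within that of the Ikzf3 KO, and DKO cells held 42.7, 67.4 and 61.4.

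Of the polymerases of the leading and lagging strand, Pole was at 5.01, 4.91, 7.23 and 12.3 RPKM in Cre only, 13.8, 12.8, 11.6 and 11.6 in Ikzf1 KO, 9.48, 8.10, 5.17 and 3.02 in Ikzf3 KO and 7.75, 9.44 and 10.4 in DKO cells. It exceeded the Ikzf3 KO in the Ikzf1 KO by 1.00 ± 0.31 (adjusted p = 0.037). This passed under 17 of the 24 other settings, and not without S3 and S4. Pole was the 1 gene of the 34 whose DKO libraries all lay below those of the Ikzf1 KO, as in 17.3% of all genes. Its difference of -0.42 did not pass (95% interval -1.13 to 0.28, adjusted p = 0.51). For 1 gene, Tyms, the DKO libraries all lay above those of the Ikzf1 KO, as in 14.5% of all genes. Pold1 was at 24.4, 24.6, 26.8 and 18.5 RPKM in the Ikzf3 KO and 42.3, 34.2, 36.4 and 38.8 in the Ikzf1 KO (0.68 ± 0.18, adjusted p = 0.021); as for Cdt1, S3 was the highest of the Ikzf3 KO libraries.

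Mcm10, which joins in activating the helicase, was at 6.82, 6.34, 3.12 and 2.70 RPKM in Ikzf3 KO and 8.93, 8.68, 8.31 and 9.59 in Ikzf1 KO cells (0.93 ± 0.29, adjusted p = 0.041). This passed under 14 of the 24 other settings, and not without S3 and S4. Ung, which cuts uracil out of DNA, was at 5.93, 5.89, 0.581 and 0.934 RPKM in Ikzf3 KO, 7.03, 5.46, 3.61 and 6.15 in Cre only, 7.79, 6.08, 6.47 and 6.94 in Ikzf1 KO and 4.57, 13.1 and 8.69 in DKO cells. S3 and S4 were far below all other libraries, and no comparison of Ung passed (Ikzf3 KO against Cre only -1.07, 95% interval -2.15 to 0.02, adjusted p = 0.15, and 0.12 without S3 and S4). It therefore contrasted with Dut, the other enzyme that keeps uracil out of DNA, whose S3 and S4 values were 115 and 124 RPKM; the difference between both genes was not tested.

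The genes Rrm1, Gins1, Gins2, Orc1, Pola1, Fen1, Ung, E2f1 and Ccne1 passed in none of the 7 comparisons. Rrm1, the large subunit of ribonucleotide reductase, was nonetheless even in Ikzf1 KO cells, at 52.2, 53.0, 51.6 and 51.9 RPKM, all above the 29.2, 21.7, 29.6 and 50.1 of Cre only. Gins1, of the activated helicase, was at 16.4, 18, 17 and 16 RPKM against 10.3, 6.46, 7.49 and 13.6, again without overlap.

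E2f1, an activating E2F and the only one among the 34 genes, was at 18.4, 17.7, 15.7 and 21.5 RPKM in Cre only, 25, 20.9, 21.8 and 22.1 in Ikzf1 KO, 20.7, 20.7, 10.6 and 10.0 in Ikzf3 KO and 16.2, 21.5 and 17.5 in DKO cells. It passed in none of the 7 tests. Its DKO difference from Cre only was 0.01 (95% interval -0.49 to 0.51).

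These counts rested on few libraries, and those below are given without the share of all genes called in each fit. In the DKO comparison with the Ikzf3 KO the count of 9 rose to 21 (S1 left out), 23 (S2), 14 (S5) and 15 (S19), and dropped to 2 (S3 or S7), 3 (S4) and 1 (S6). It was 1 without S3 and S4, 31 without S1 and S2, and 0 in the fit on the 2 genotypes alone. In that of the Ikzf1 KO the count of 14 rose to 25 (S1 left out) and 26 (S2), and dropped to 4 (S3), 7 (S7), 5 (S13 or S14), 8 (S16 or S18) and 2 (S4, S12 or S15). It was 0 without S3 and S4 and 28 without S1 and S2.

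**Figure D5:**
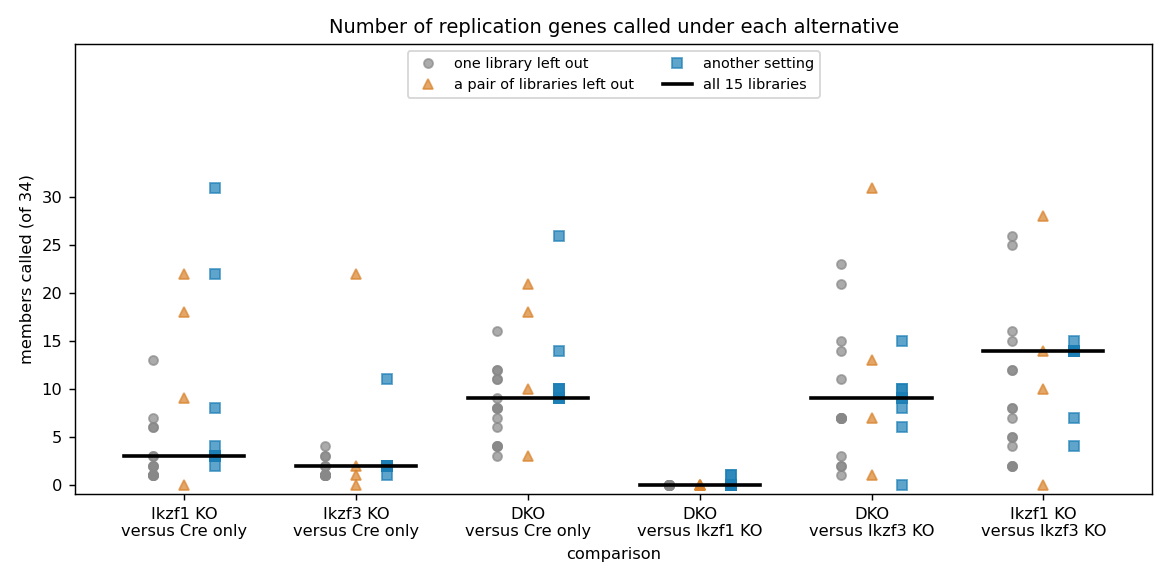
Number of the 34 genes called (y axis) in 6 comparisons (x axis), with all 15 libraries (black lines), with a library or a pair left out, and under other settings. Counts run from 0 to 31 in Ikzf1 KO versus Cre only and from 0 to 31 in DKO versus Ikzf3 KO. The share of all genes called in each fit is not shown.

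The DKO was also set against the sum of the single deletions. By limma, 0 of the 34 departed from it, against 6.55% of all genes tested (3.63% above and 2.92% below). At an unadjusted p below 0.05 there were 0, against 20.9% of all genes tested. The median departure was 0.07, and the interval for Mcm2 was -0.65 to 2.54. Without S1 and S2, which leaves only S3 and S4 in the Ikzf3 KO, 15 were called. The share of all genes called in that fit is not given here, so this count is not a result about the 34 genes alone.

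Other genes of the pathway, in lists chosen by function, were counted in the same fit. Against Cre only, 3.54% of all genes tested were called higher and 2.78% lower in Ikzf1 KO cells. The shares were 6.3% and 7.88% in Ikzf3 KO cells, and 8.06% and 10.6% in DKO cells. Of 33 tested replication genes outside the 34, 6 rose in Ikzf1 KO cells, among them Pold2, an accessory subunit of DNA polymerase delta, by 0.60 ± 0.14 (adjusted p = 0.016), and none fell. In the DKO 6 rose, among them Rnaseh2a, of the enzyme that removes ribonucleotides from DNA, by 0.71 ± 0.13 (adjusted p = 0.002). In the Ikzf3 KO 1 rose (Orc4, by 0.49 ± 0.15) and 2 fell, including Rpa1, which coats single-stranded DNA, by 0.43 on the log2 scale. The medians were 0.48, 0.38 and 0.00 in the same order. Of 16 other nucleotide genes 5 rose in the DKO, with Paics, of purine synthesis, at 0.81 ± 0.16 (adjusted p = 0.003), against 0 in the Ikzf1 KO and 1, Paics, in the Ikzf3 KO.

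Of 18 tested replication stress and repair genes, 3 rose in Ikzf1 KO, 2 in Ikzf3 KO and 2 in DKO cells, the last being the checkpoint kinases Chek1 (1.31 ± 0.26, adjusted p = 0.003) and Chek2 (0.89 ± 0.22, adjusted p = 0.01). Of 10 other S phase chromatin genes, 1 rose in the Ikzf1 KO (Atad2), 2 in the DKO and none in the Ikzf3 KO. Of the 29 mitosis genes, 12 rose in Ikzf1 KO cells, led by Cdc20, an activator of the anaphase-promoting complex (1.08 ± 0.22, adjusted p = 0.008). In Ikzf3 KO and DKO cells 3 each rose, and none fell in any of the 3. Their medians were 0.84 in the Ikzf1 KO, 0.43 in the Ikzf3 KO and 0.46 in the DKO, against 0.66, -0.19 and 0.61 for the 34 replication genes. The difference between the lists was not tested. Over all genes tested, 3.54%, 6.3% and 8.06% were called higher in the Ikzf1 KO, Ikzf3 KO and DKO.

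The lowest values call for care. Fen1, the flap endonuclease of Okazaki fragments, was at 0.612 to 3.63 RPKM over the 15 libraries, with 18 reads in its lowest, and 1909 of its 2422 exonic bases lie opposite Gm10143. Orc1 was at 0.497 to 7.83 RPKM, with 21 reads in its lowest library. Of the 4097 exonic bases of Gins2, 2758 overlap Gse1 on the other strand. Neither Fen1, Orc1 nor Gins2 passed a test in any comparison.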

How the data were processed

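Libraries of polyadenylated RNA were made with a directional kit and sequenced as single reads of 75 bp, per the labels' protocols. STAR, featureCounts, limma 3.34.9 and the build mm10 stand in the submitters' processing notes, with no settings. The authors deposited RPKM per gene, with no counts. Columns name the genotype, not the culture; group sizes match only the cultured samples. Reads recovered from the RPKM steps and GENCODE M21 exon lengths were whole in 11291 genes (96.2%, tolerance 0.02 read).

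Values were transformed to log2(RPKM + 0.5), for the 10032 genes that reached an RPKM of 1 in 3 or more libraries, so folds of low genes are understated. A linear model of all 15 libraries (limma 3.58.1 under R 4.3.3) had a mean for each genotype, 11 residual degrees of freedom, and robust moderation with a trend, and was tested on simulated data. In 7 comparisons genes were called where the 2-sided p, adjusted by Benjamini-Hochberg across the genes tested, was below 0.05. Alternatives were other pseudocounts, filters, scalings, fits and left-out libraries. Motifs and figures used Python 3.11.15, numpy 2.4.6, pandas 2.3.3 and matplotlib 3.10.9.

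The members and lists were chosen with earlier results of these data known. Shown in every library were 11 genes chosen by role and the 3 of smallest adjusted p per direction and comparison, and from other lists up to 4 of smallest adjusted p. Some of these are given in part.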

Additional observations from a re-analysis of the deposited data

Results flagged for a closer look

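In each genotype of 4 libraries, every gene was checked for a library far from the other 3, in 102 checks, of which chance gives about 1 in 20. In Cre only cells, Pold1, the catalytic subunit of DNA polymerase delta, was at 37.1 RPKM in S19, against 22 in the nearest and 19.8 in the farthest library, a gap of 0.871 of the range (critical value 0.829). Fen1 was at 2.73 RPKM in S19, against 1.68 and 1.49, a gap of 0.841. S19 was the highest Cre only library for 33 of the 34 genes, so both belong to the same library that stood apart as a whole.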

How the results depend on the processing

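No paired analysis was possible because the columns carry no replicate number, so the planned fit with a replicate block was not run. No gene that was called in a comparison changed direction there under the alternatives run. Of all 34 genes in Ikzf3 KO against Cre only, called or not, 24 changed direction without S3 and S4 and 3 without S1 and S2. With quantile normalization the calls were 8 (Ikzf1 KO against Cre only), 14 (DKO against Cre only) and 15 (DKO against Ikzf3 KO). With only the compared genotypes fitted they were 22 (Ikzf1 KO against Cre only), 1 (Ikzf3 KO against Cre only), 1 (DKO against Ikzf1 KO), 0 (DKO against Ikzf3 KO) and 4 (Ikzf1 KO against Ikzf3 KO). With weights per library they were 31, 11 and 26 for the Ikzf1 KO, Ikzf3 KO and DKO against Cre only, 1 for DKO against Ikzf1 KO and 7 for Ikzf1 KO against Ikzf3 KO. The share of all genes called also changed between settings and is not given beside these counts, so they are not results about the 34 genes alone.

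Pairs of libraries were left out after seeing the data, and the share of all genes called, which also changed, is not given beside each count. Without S1 and S2 the calls were 18 (Ikzf1 KO), 22 (Ikzf3 KO) and 18 (DKO) against Cre only, 31 (DKO against Ikzf3 KO), 28 (Ikzf1 KO against Ikzf3 KO) and 15 (departure from the sum). Without S3 and S4 they were 22 (Ikzf1 KO), 2 (Ikzf3 KO) and 21 (DKO) against Cre only, 1 (DKO against Ikzf3 KO) and 0 (Ikzf1 KO against Ikzf3 KO). Without S16 and S17 they were 0, 0 and 3 for the Ikzf1 KO, Ikzf3 KO and DKO against Cre only, and without S18 and S19 they were 9 for the Ikzf1 KO and 1 for the Ikzf3 KO. With each library left out in turn the ranges were 1 to 13, 1 to 4 and 3 to 16 against Cre only in the same order, 0 to 0 for DKO against Ikzf1 KO, 1 to 23 for DKO against Ikzf3 KO, 2 to 26 for Ikzf1 KO against Ikzf3 KO and 0 to 0 for the departure. The cause was not tested. Read depth limits Fen1 and Orc1.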

Other observations

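Of 26 tested regulators of the G1/S step outside the 34 genes, 1 rose and 2 fell in the Ikzf3 KO against Cre only. Over all genes tested 14.2% were called. Of these 3 regulators, Cdkn2d and Ccnd2 also differed between S1 and S2 on the one hand and S3 and S4 on the other. Cdkn2d, an inhibitor of the cyclin D kinases, was at 56.4, 64.1, 136 and 162 RPKM in S1 to S4 and at 48.1, 44.6, 42.6 and 45.0 in Cre only S16 to S19 (log2 fold change 1.06 ± 0.28, adjusted p = 0.022, limma). All 4 Ikzf3 KO libraries were above the controls, S3 and S4 by the most. Ccnd2, cyclin D2, was at 82.2, 79.7, 30.9 and 24.1 RPKM against 114, 126, 104 and 77.9, and fell by 1.14 on the log2 scale (adjusted p = 0.036). Ccnd3, cyclin D3, was at 37.2, 38.7, 34.2 and 29.9 RPKM against 65.4, 83.6, 49.5 and 48.2, without overlap, and fell by 0.78 (adjusted p = 0.009).

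Genes of other lists were split in the same libraries in both directions. Cdca7, a partner of the chromatin remodeller Hells, was at 16.1, 15.6, 1.94 and 1.80 RPKM in Ikzf3 KO S1 to S4 and at 17.4, 47.0 and 36.5 in DKO cells (DKO higher by 2.34 ± 0.63, adjusted p = 0.017). Pold4, the smallest subunit of DNA polymerase delta, went the other way, at 63.2, 73.3, 256 and 272 RPKM in the Ikzf3 KO against 40.1, 34.5 and 45.7 in the DKO (adjusted p = 0.01). So Pold4 was highest in S3 and S4, where the catalytic subunit Pold1 was at 26.8 and 18.5 RPKM.

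In the DKO 2 genes of the 26 tested in the G1/S network rose and 1 fell, a smaller share than the 18.7% called over all genes tested. Skp2, which marks Cdk inhibitors for degradation, rose by 0.99 ± 0.23 against Cre only (adjusted p = 0.008). Mycn, a transcription factor of growth, fell by 2.17 on the log2 scale (adjusted p = 0.005).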
